A study of Mus musculus with 2 samples.

Results

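The EGF family signals from one cell to its neighbours through the ErbB receptor tyrosine kinases, and 10 of its genes are described here: the ligand genes Hbegf, Egf, Tgfa, Areg, Ereg and Btc and the receptor genes Egfr, Erbb2, Erbb3 and Erbb4. Members were all probe sets whose platform annotation gave exactly 1 gene symbol and whose symbol was one of these. This gave 20 of 34945 such probe sets on the array, which stood for 9 of the 10 genes and for 9 of 18193 named genes in all. Of them, 9 probe sets belonged to ligands and 11 to receptors. Areg had no probe set by this rule and was not analysed here.

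Expression was measured in kidney glomeruli, isolated by sieving, of male C57BL/6J mice. The double knockout carried GC-A fl/fl and p38 fl/fl with Nephrin-Cre (Cre/+), and the floxed control carried GC-A fl/fl and p38 fl/fl with Nephrin-Cre (+/+), read here as no Cre. GC-A is a guanylyl cyclase receptor for natriuretic peptides, p38 is a stress-activated kinase, and the nephrin promoter directs Cre to podocytes, so other cells of the glomerulus keep both genes. Both genotypes, studied at 2 months of age, ate food with 6% NaCl for 3 weeks while a minipump released aldosterone, a mineralocorticoid hormone, at 0.2 µg/kg per minute, so no animal was without this load. There was 1 array per genotype, and how many mice gave its RNA is not stated in the labels. No value below therefore has a replicate check or a test. Higher and lower state how the double knockout array stood relative to the floxed control array.

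ErbB ligands are made as membrane-anchored precursors that metalloproteinases cut free. A bound ligand joins receptors in pairs, which start the Ras and ERK cascade and the PI3-kinase and Akt cascade. ErbB2 binds no known ligand and ErbB3 has an impaired kinase, so both work as partners in mixed pairs. In the kidney, the loop of Henle and distal tubule make large amounts of EGF, and EGFR signalling is known for its part in tubule repair and in the injury response of glomerular epithelium.

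Each value was a MAS5 signal, a background-corrected intensity per probe set on a linear scale, with each array scaled to the same trimmed mean. A probe set was taken as not measured if both its signals were below 52.7, the mean over the arrays of their 40th percentile (the floor). A gene was represented by its brightest probe set, and levels were not compared between probe sets. Npr1, which encodes GC-A, read 102 in the double knockout, against 167 in the floxed control (log2 difference -0.71), and Mapk14, taken as the floxed p38 gene, read 2607 in the double knockout, against 2628 in the floxed control (-0.01). Whether these probe sets lie inside the floxed part is not stated in the labels, so they do not check the deletion. The arrays had median signals of 94.7 (double knockout) and 88.6 (floxed control), and all 21 podocyte markers with a named probe set were measured.

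Of the 7 member genes with a measured brightest probe set, 1 was at least 2-fold lower in the double knockout, where 2.87% of the 13290 measured genes were. That gene was Erbb3. At least 2-fold higher were 0 of 7 members, where 3.53% of measured genes were. Differences of 5 members lay below 0, as did 43.9% of measured genes, and those of 2 lay above it, as did 56.1%. The median log2 difference was -0.43 over the 7 members and 0.07 over all measured genes. Over probe sets, 15 of 20 members were measured, of which 1 was at least 2-fold lower and 0 at least 2-fold higher, against 2.39% and 3.27% of the 24455 measured probe sets with 1 symbol.

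**Figure D1:**
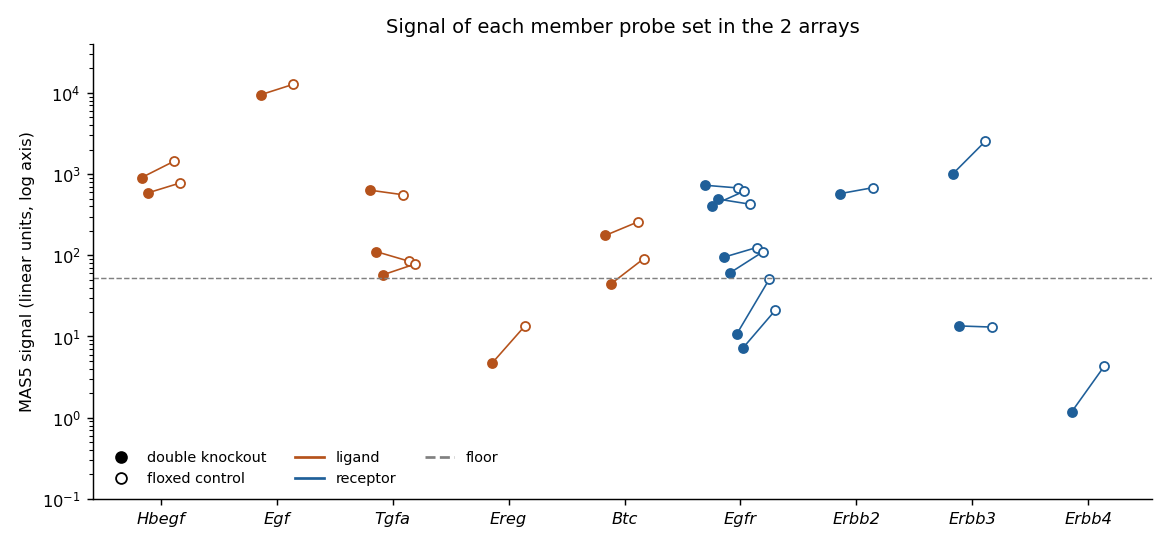
MAS5 signal (log axis) of each member probe set, with filled points for the double knockout on the left of each pair and open points for the floxed control on the right; lines join the same probe set and the dashed line is the floor of 52.7. Erbb3, with signals of 1006 (double knockout) and 2533 (floxed control), has the steepest line among the probe sets above the floor.

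Erbb3 encodes the receptor for neuregulins that signals through its partners. Its brightest probe set, 1434606_at, read 1006 in the double knockout, against 2533 in the floxed control. This is 2.52-fold lower (log2 difference -1.33), and 0.805% of measured genes had a lower difference. The difference lay between -1.88 and -0.61 over the 13 other ways of treating the signals, and was past 2-fold in 12. The exception was recentring on tubule markers, which gave -0.61. Settings with another floor, no floor or another choice of probe set could not move it from -1.33. Its only measured probe set was far above the floor. The other Erbb3 probe set, 1452482_at, read 13.5 in the double knockout, against 13.1 in the floxed control, below the floor in both arrays, so that the Erbb3 result rests on a single probe set.

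Egfr, the receptor of all 6 ligands listed here, had 7 probe sets, of which 5 were measured and did not share a direction. The brightest, 1435888_at, read 728 in the double knockout, against 675 in the floxed control (log2 difference 0.11). The probe set 1424932_at read 492 in the double knockout, against 425 in the floxed control (0.21). The other 3 were lower in the double knockout. For 1460420_a_at the signals were 408 in the double knockout, against 615 in the floxed control (-0.59). For 1451530_at they were 95.0 in the double knockout, against 125 in the floxed control (-0.39), and for 1432647_at 61.3 in the double knockout, against 110 in the floxed control (-0.85). The probe sets 1424932_at and 1451530_at were designed on the same target record and differed in sign. The mean over the 5 was -0.30, so the sign of Egfr depends on which probe set stands for it, and it also turned negative when differences were recentred on glomerular markers (-0.43). The remaining Egfr probe sets, 1454313_at and 1457563_at, were below the floor in both arrays.

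Erbb2, the partner receptor without a known ligand, had 1 probe set, with signals of 574 (double knockout) and 679 (floxed control) (log2 difference -0.24, 1.18-fold lower). After recentring on tubule markers it stood at 0.48. Erbb4, a second neuregulin receptor, read 1.19 in the double knockout, against 4.32 in the floxed control, below the floor in both arrays, and no fold is given. Of the 3 measured receptor genes, Erbb3 alone passed 2-fold.

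Among the ligands, Hbegf encodes the heparin-binding EGF-like growth factor, which activates EGFR and ErbB4. Its brightest probe set, 1418350_at, read 905 in the double knockout, against 1439 in the floxed control, 1.59-fold lower (log2 difference -0.67). The second, 1418349_at, read 586 in the double knockout, against 778 in the floxed control, 1.33-fold lower (-0.41). Both were designed on the same target record, so they are not independent readings of the transcript. Their differences had the same sign, and 7.94% of measured genes had a lower difference than the brightest. Hbegf was below 0 in 12 of 13 other settings, reached -1.21 after recentring on glomerular markers and was at 0.05 after recentring on tubule markers. Settings with another floor or none could not move it. With both probe sets lower, no choice of probe set could change its sign.

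Egf, the gene of the EGF precursor, had 1 probe set, 1418093_a_at, with 9474 in the double knockout, against 12722 in the floxed control. It was 1.34-fold lower (log2 difference -0.43), and 15.8% of measured genes had a lower difference. The value was -0.16 after quantile normalization and after removal of a trend with signal, and 0.29 after recentring on tubule markers.

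Btc, the gene of betacellulin, a ligand of EGFR and ErbB4, was lower in both of its probe sets. The brightest, 1435541_at, read 175 in the double knockout, against 257 in the floxed control (log2 difference -0.55, 1.47-fold lower). For 1421161_at the signals were 44.9 in the double knockout, which is below the floor, and 91.1 in the floxed control, so it was at least 1.73-fold lower. Recentring gave -1.09 on glomerular markers and 0.17 on tubule markers.

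Tgfa, the gene of transforming growth factor α, was the ligand with the highest difference. Its brightest probe set, 1421943_at, read 633 in the double knockout, against 557 in the floxed control (log2 difference 0.18). The second, 1450421_at, read 111 in the double knockout, against 84.6 in the floxed control (0.39), while 1421942_s_at read 57.4 in the double knockout, against 78.2 in the floxed control (-0.45). All 3 were designed on the same target record. The dimmer probe sets, which differed in sign, were both close to the floor, and the mean over the 3 was 0.04. The difference of the brightest became -0.36 after recentring on glomerular markers. Ereg, the gene of epiregulin, read 4.75 in the double knockout, against 13.5 in the floxed control, below the floor in both arrays.

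**Figure D2:**
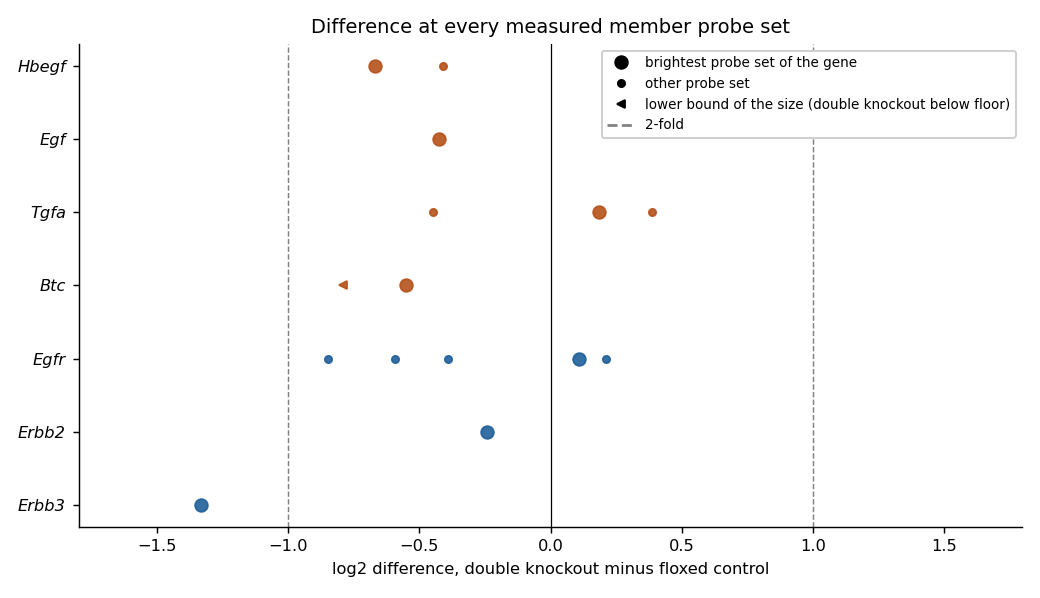
Log2 difference (double knockout minus floxed control) of the 15 measured member probe sets, ligands in orange and receptors in blue, with dashed lines at 2-fold and a triangle where the double knockout was below the floor. Erbb3 at -1.33 is the point beyond a dashed line, and the Egfr probe sets run from -0.85 to 0.21.

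Promoter windows are shown for 4 measured members, the lower ligands Egf and Btc and the members above 0 at their brightest probe set, Tgfa and Egfr. They hold the 250 bases before the RefSeq start on GRCm38.p6, 5′ to 3′ on the gene's strand, and the Egf window is the upstream one of the starts listed. Capitals mark matches to the motifs searched on both strands.
Egf: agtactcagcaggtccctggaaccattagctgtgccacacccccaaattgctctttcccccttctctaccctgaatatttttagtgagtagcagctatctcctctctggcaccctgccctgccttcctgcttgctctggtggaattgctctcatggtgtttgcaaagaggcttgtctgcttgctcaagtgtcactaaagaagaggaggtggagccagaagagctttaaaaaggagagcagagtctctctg
Btc: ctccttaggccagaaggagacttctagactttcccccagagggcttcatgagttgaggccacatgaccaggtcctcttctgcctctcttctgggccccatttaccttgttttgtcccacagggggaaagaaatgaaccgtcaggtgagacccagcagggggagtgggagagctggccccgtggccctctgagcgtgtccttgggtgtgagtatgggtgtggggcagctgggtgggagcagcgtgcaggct
Tgfa: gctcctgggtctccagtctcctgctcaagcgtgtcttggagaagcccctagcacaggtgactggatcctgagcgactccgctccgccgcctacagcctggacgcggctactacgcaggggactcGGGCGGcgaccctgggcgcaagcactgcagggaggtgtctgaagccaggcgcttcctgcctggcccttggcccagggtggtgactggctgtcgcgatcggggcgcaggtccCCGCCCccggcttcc
Egfr: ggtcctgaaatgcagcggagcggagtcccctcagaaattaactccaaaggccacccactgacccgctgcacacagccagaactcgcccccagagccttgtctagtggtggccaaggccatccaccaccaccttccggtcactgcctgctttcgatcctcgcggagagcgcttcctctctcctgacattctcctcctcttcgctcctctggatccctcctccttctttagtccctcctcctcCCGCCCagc
The Egf window is chr3:129755323-129755572 and the Btc window chr5:91402995-91403244, both on the minus strand. The Tgfa window is chr6:86194972-86195221 and the Egfr window chr11:16751953-16752202, both on the plus strand. Of 32851 RefSeq windows of this length, 12.4% held the TATA box letters TATAAA and 32.7% held the GC box letters GGGCGG. The CCAAT box, searched as its name spells it, was in 33.8%. The AP-1 site, searched as TGANTCA, was in 6.75% and the cAMP response element, searched as TGACGTCA, in 1.55%. The Tgfa window held 2 GC boxes and the Egfr window 1, and the Egf and Btc windows held no match to these letters. The window of Erbb2, a lower member whose sequence is not shown, held 1 CCAAT box. CG dinucleotides numbered 0 in the Egf window, 4 in Btc, 19 in Tgfa, 11 in Egfr and 16 in Erbb2, beside a median of 6 over all windows. The window of the other Egf start held 15 and no motif match, so the Egf value depends on the start chosen. The lower members Egf, Btc and Erbb2 did not share a low number. Windows of Erbb3 and Hbegf, which were also lower, were not examined here.

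Tubule transcripts were lower as a group in the double knockout array, and the lower members are therefore set beside them. Markers of the proximal tubule were below 0 in 19 of 19 measured genes. They had a median log2 difference of -0.81, and their summed signal was 175277 (double knockout) and 275697 (floxed control). Markers of the thick ascending limb of the loop of Henle were below 0 in 9 of 9 (median -0.53, summed signal 36271 in the double knockout, against 46105 in the floxed control). Markers of the distal convoluted tubule were below 0 in 7 of 8 (median -0.63, summed signal 33309 in the double knockout, against 48080 in the floxed control), and those of the collecting duct in 12 of 12 (median -0.83, summed signal 8493 in the double knockout, against 14593 in the floxed control). No tubule marker was listed at 0, and 1 of 49 was below the floor in both arrays. In such bulk samples fewer cells of a type and less RNA per cell cannot be told apart. Nor can a difference between the animals be told apart from the amount of tubule carried along in sieving, which was not tested.

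Each gene is taken here at its brightest probe set. Egf, a product of the loop and distal tubule, differed by -0.43, higher than 5 of 9 thick ascending limb markers and 6 of 8 distal convoluted tubule markers. The sodium chloride carrier genes of these segments, Slc12a1 and Slc12a3, differed by -0.53 and -0.67. Hbegf and Btc also lay within the range of these markers. Erbb3 was lower than all 9 thick ascending limb markers, all 8 distal convoluted tubule markers and 11 of 12 collecting duct markers. It was lower than 17 of 19 proximal tubule markers, with Dpys at -1.66 and Slc7a13 at -1.43 below it. The collecting duct marker below it was Slc4a1, at -1.58, and the next, Foxi1, stood at -1.30. Further probe sets of Aqp3 (-1.37) and Slc22a6 (-1.36) also lay below Erbb3, while some of Slc4a1 (-1.25) and Dpys (-0.04) lay above it. The place of Erbb3 among these markers therefore depends on the probe sets chosen. The part of the tubule RNA in the Erbb3, Egf, Hbegf and Btc differences was not tested.

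Glomerular and macrophage markers had medians above 0. The medians were 0.47 for podocyte markers (17 of 21 above 0, summed signal 135572 in the double knockout, against 114170 in the floxed control), 0.49 for parietal epithelium (6 of 10, summed signal 39231 in the double knockout, against 36609 in the floxed control), 0.76 for glomerular endothelium (15 of 15, summed signal 89284 in the double knockout, against 59812 in the floxed control) and 0.85 for mesangium and mural cells (11 of 11, summed signal 42724 in the double knockout, against 24615 in the floxed control). The median was 0.89 for macrophage and monocyte markers, with 16 of 16 above 0 and a summed signal of 14454 in the double knockout, against 8039 in the floxed control. All 7 measured members lay below the medians of these 5 lists. The 5 measured lymphocyte markers had a median of 0.22 and the 6 neutrophil markers -0.28, with 5 of 6 below 0. Of 11 named lymphocyte markers, 6 were below the floor in both arrays. Several of the neutrophil differences were lower bounds, with the signal of an array below the floor.

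**Figure D3:**
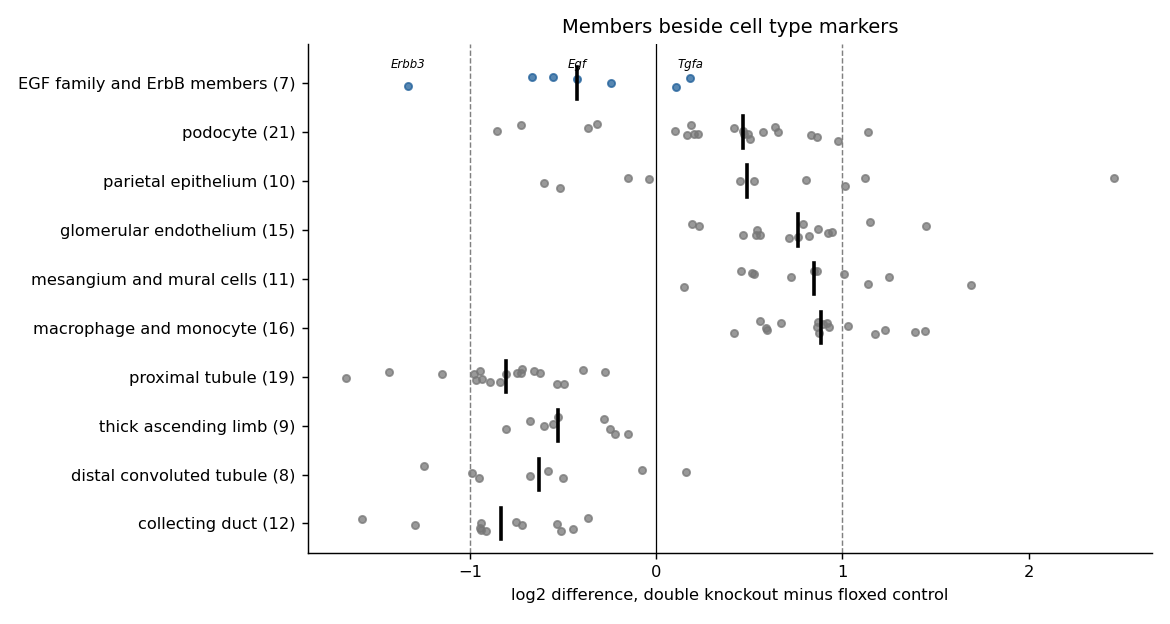
Log2 difference (double knockout minus floxed control) of the 7 measured members, at their brightest probe sets, and of cell type markers, 1 point per gene, with a black bar at the median and the number of genes in brackets. The members lie below the medians of the glomerular and macrophage lists, and Erbb3 at -1.33 lies at the low end of the tubule range.

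Other genes of the pathway had differences of both signs, with more above 0 than below. Over 110 measured genes on 7 lists, 4 reached 2-fold upward, where 3.53% of all measured genes did, and 0 reached it downward, where 2.87% did. Above 0 lay 83 and below it 27, where 56.1% and 43.9% of all measured genes lay. Their median log2 difference was 0.25, against 0.07 over all measured genes. The 4 were Adam12, Cd44, Myc and Egr3. After recentring on glomerular markers the medians of all 7 lists were below 0, and they ran there from -0.45 to -0.02.

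Of the other EGF family ligand genes, 3 of 5 were measured and none passed 2-fold. Nrg4, a neuregulin gene, read 60.5 in the double knockout, against 90.2 in the floxed control (log2 difference -0.58). Nrg1, the gene of neuregulin 1, which ErbB3 binds, read 102 in the double knockout, against 79.0 in the floxed control (0.37). These signals were close to the floor.

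Among 8 measured genes for the shedding of ligands, Adam12 alone passed 2-fold. This metalloproteinase gene, whose product can release HB-EGF, read 512 in the double knockout, against 175 in the floxed control, 2.92-fold higher, and its other measured probe set gave a log2 difference of 0.98. The list median was 0.17. Of the 9 genes for partners of HB-EGF and carriers of heparan sulfate, all were above 0 (median 0.34), the lowest by only 0.002. Among them Cd44, which encodes a hyaluronan receptor that can carry heparin-binding growth factors, read 1855 in the double knockout, against 337 in the floxed control (5.50-fold higher). Its other probe sets gave 1.99 and 2.63 on the log2 scale. Cd44 is also on the parietal epithelium list, of which it was the highest member.

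The adaptor and kinase cascade genes had a median of 0.21, with 0 of 27 past 2-fold. Pik3r1, a regulatory subunit of PI3-kinase, read 3619 in the double knockout, against 1879 in the floxed control (log2 difference 0.95), and Nras read 1392 in the double knockout, against 890 in the floxed control (0.65). Genes that restrain ErbB signalling had a median of 0.27, with 0 of 23 past 2-fold. Socs5, an adaptor that promotes receptor degradation, read 1310 in the double knockout, against 712 in the floxed control (0.88), and Dusp5, an ERK phosphatase, 156 in the double knockout, against 94.6 in the floxed control (0.72). The other measured Socs5 probe set gave a log2 difference of 0.31. Errfi1, whose product binds and inhibits ErbB kinases, was the lowest of this list. It was picked after the values were seen. Errfi1 read 7928 in the double knockout, against 12326 in the floxed control (-0.64), and its second probe set gave -0.99.

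Transcripts induced by growth factors had the highest median of the 7 lists, 0.52, with 21 of 23 above 0. Myc, a transcription factor gene, read 307 in the double knockout, against 102 in the floxed control, 3.00-fold higher, and Egr3, another, read 122 in the double knockout, against 56.9 in the floxed control, 2.14-fold higher. A second Egr3 probe set gave a log2 difference of -0.70, so its direction depends on the probe set. Plau and Etv5 were the 2 genes of this list below 0. Plau stood at -0.84, and at -1.04 in its other measured probe set, and Etv5 stood at -0.12. Genes of receptor endocytosis and sorting had a median of 0.09, which was below 0 once the arrays were centred on their medians or their 75th percentiles, and 0 of 17 passed 2-fold. Sh3kbp1, whose product links Cbl to endocytosis, read 417 in the double knockout, against 223 in the floxed control (0.90), and Epn2, the gene of an epsin, read 1188 in the double knockout, against 812 in the floxed control (0.55). The 2 other measured Sh3kbp1 probe sets both gave a log2 difference of 1.01, just past 2-fold, so its call depends on the probe set.

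**Figure D4:**
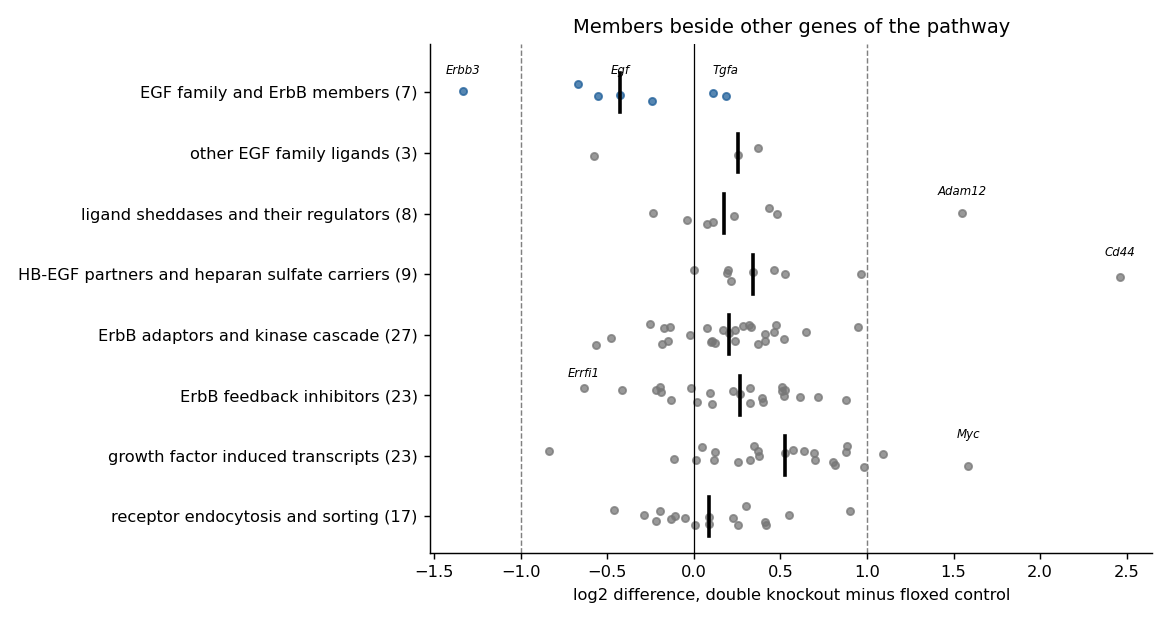
Log2 difference (double knockout minus floxed control) of the 7 measured members and of the 7 lists of other pathway genes, 1 point per gene, with a black bar at each median and dashed lines at 2-fold. Adam12, Cd44, Myc and Egr3 lie beyond 2-fold on the right and Erbb3 on the left.

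The reference to which arrays are scaled moved all members together. Recentring on the median of 57 glomerular markers (0.54) put Erbb3 at -1.88, Hbegf at -1.21 and Btc at -1.09, so that 3 of 7 members were at least 2-fold lower, where 14.5% of all measured genes then were. Recentring on the median of 48 tubule markers (-0.72), a setting added after seeing the data, put Erbb3 at -0.61, Tgfa at 0.90 and Egfr at 0.83. No member passed 2-fold there in either direction, where 31.0% of all measured genes were at least 2-fold higher. Each recentring moves every gene by one constant, so which members change sign under it follows from their values as deposited.

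**Figure D5:**
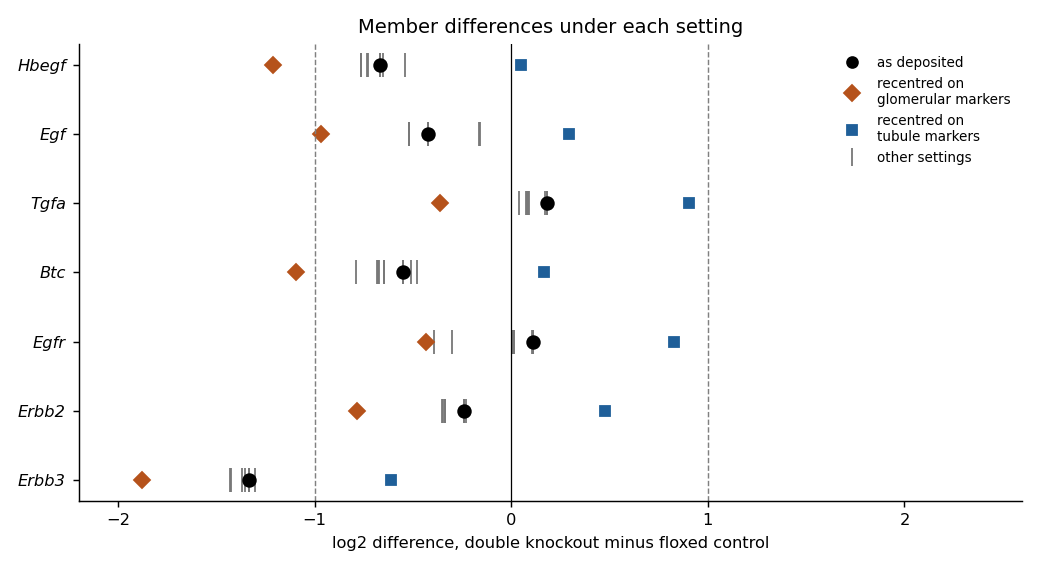
Log2 difference (double knockout minus floxed control) of each measured member as deposited (circle), after recentring on glomerular (diamond) or tubule markers (square) and in the other settings (ticks), with dashed lines at 2-fold. Erbb3 runs from -1.88 to -0.61, and the 2 recentrings shift all members by the same amounts.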

How the data were processed

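The authors deposited 1 signal intensity per probe set and array, which MAS5 produced, per the submitters' processing notes. Its version is not stated there. The arrays were hybridised with biotinylated cRNA made from 250 ng total RNA per the labels' protocols. The mean after leaving out the lowest and highest 2% was 500.0 on both arrays. MAS5 detection calls were not used here.

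Signals were used as deposited. The 64 control probe sets were left out, and GEO's platform annotation supplied the gene symbols. Of the rest, 34945 had 1 symbol, 932 several and 9160 none listed. The brightest probe set by mean log2 signal stood for a gene, cross-hybridising sets (_x_at) last. Signals below the floor (40th percentile) were raised to it before log2, and a difference against such a signal is a lower bound of the size. A gene was called at 2-fold. With 1 array per group no test was possible, and the number of arrays limits the precision. The members, the lists and the alternatives were chosen with earlier results of these data known.

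Named were every member probe set and the listed pathway genes past 2-fold (up to 4 a list, otherwise the 2 largest differences). Up to 3 markers a list were also named. Slc12a1, Slc12a3, Slc22a6, Errfi1, Plau and Etv5 were named outside this rule. Protein sequences were not used here. Steps were tested on simulated signals. Python 3.11.15, pandas 2.3.3 and numpy 2.4.6 were used. Alternatives were other floors, scalings, probe set choices and fold rules.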

Additional observations from a re-analysis of the deposited data

How the results depend on the processing

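With 1 array per genotype no array could be left out, and no paired analysis was possible because each group holds 1 sample. Member genes at least 2-fold higher numbered 0 in all 15 settings. Member genes at least 2-fold lower numbered 1 in 10 of the 15 other settings, 3 with no floor (where Ereg and Erbb4 enter with signals below the floor) and 3 after recentring on glomerular markers, 2 under a 1.5-fold rule, and 0 under a 3-fold rule and after recentring on tubule markers. Member probe sets at least 2-fold lower numbered 3 with the floor at the 25th percentile, 6 with no floor, 6 after recentring on glomerular markers, 5 under the 1.5-fold rule, and 0 under the 3-fold rule and after recentring on tubule markers, where 1 was at least 2-fold higher. Of the pathway genes at least 2-fold higher, 4 in the values as deposited, there were 2 with the floor at the 60th percentile, 7 with no floor, 19 under the 1.5-fold rule, 2 under the 3-fold rule and 52 after recentring on tubule markers. Pathway genes at least 2-fold lower, 0 as deposited, numbered 6 after recentring on glomerular markers, 2 under the 1.5-fold rule and 1 with the probe set of median difference. The fold rules, the floors and the recentring change these counts by construction. Called higher were 2.64% of measured genes with the floor at the 60th percentile and 9.1% with no floor. That share was 13.7% under the 1.5-fold rule, 0.549% under the 3-fold rule and 31.0% after recentring on tubule markers. Shares over all probe sets were not worked out for these settings. With the floor at the 60th percentile no gene on the list of other EGF family ligands was measured.

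Over all measured genes, counts as deposited were 469 higher and 382 lower. They came to 333 higher and 530 lower after centring on the median or on the 75th percentile, 358 and 438 after quantile normalization, 347 and 440 after removal of a trend with signal, 1655 and 1491 with no floor, 83 and 1926 after recentring on glomerular markers, and 4125 and 20 after recentring on tubule markers. Ereg, Erbb4, the 2 dimmest of the 7 Egfr probe sets and the dimmer Erbb3 probe set lay below the floor, where a signal gives no order.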
